A study of Homo sapiens with 9 samples.

Results

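Transcripts of 8 tight junction genes were followed in MDA-MB-231, a long-established human cell line of triple negative breast cancer. The genes were 5 claudins (CLDN1, CLDN3, CLDN4, CLDN7 and CLDN12), occludin (OCLN), the junctional adhesion molecule F11R and the scaffold ZO-1 (TJP1). They were chosen by symbol, with earlier results of these data known. They are 8 of the 60715 genes in the count table, and all 8 passed the filter on low counts. The study examined what overexpression of a potassium channel changes in these cells. All cells, controls included, had received a lentivirus and were then sorted for its fluorescent protein. The control carried RFP, a red fluorescent protein (3 libraries). The Kir2.1 line carried KCNJ2, an inward rectifier, with the Y242F substitution and joined to EGFP (3 libraries). The third line was labelled Kv1.5, a voltage-gated channel followed by T2A and EGFP (2 libraries, replicates 2 and 3). Replicate 1 of that line was not analysed here.

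Tight junctions seal the space between neighbouring epithelial cells. Claudins are four-pass membrane proteins whose extracellular loops form the barrier, and some of them form ion pores. Occludin and junctional adhesion molecules lie beside the claudin strands, and ZO proteins tie all of them to actin. MDA-MB-231 is commonly placed among claudin-low breast cancer lines, which have a mesenchymal appearance and little E-cadherin. RNA levels alone do not show whether a junction is present.

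Library totals ran from 30970235 to 42753422 counts. KCNJ2 stood at 842 to 1384 CPM (the counts of a gene scaled to a fixed library total, with TMM factors) in Kir2.1 and at most 0.105 CPM elsewhere. KCNA5, the gene of Kv1.5, had no read in the pair of libraries with that label; 0 counts allow up to 0.0390 CPM, so that label was not borne out by its own gene. "Labelled Kv1.5" below stands for the label only, and "channel lines" for the Kir2.1 and labelled Kv1.5 groups by their labels. Vimentin (VIM), the mesenchymal filament that marks this line, was at 1747 CPM or more in every library. Nothing says that replicates came from separate transductions, so the p-values below reflect differences among cultures only. In Kir2.1 replicate 1, genes with over 6 kb of exon sat lower than in the other libraries of that group, by a median log2 difference of -0.24. Genes under 3 kb sat higher there, by 0.28, whereas in the RFP and labelled Kv1.5 libraries all such medians lay between -0.09 and 0.03.

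The promoters of CLDN4, CLDN7 and CLDN1, which changed, are printed with that of CLDN3, the neighbouring gene of CLDN4. Of the 2 CLDN7 starts only 1 is printed, and which start was used was not tested. Sequences are RefSeq's, GRCh38.p14, the 250 bases before a start, read 5′ to 3′ along the gene. Capitals mark matches to TGANTCA, a pattern wider than the AP-1 letters TGACTCA and TGAGTCA. They also mark E-boxes (CAGGTG or its reverse, CACCTG), the letters to which SNAI and ZEB repressors are known to bind. The CLDN3 and CLDN1 stretches hold neither.
CLDN4, chr7:73830746-73830995, plus strand: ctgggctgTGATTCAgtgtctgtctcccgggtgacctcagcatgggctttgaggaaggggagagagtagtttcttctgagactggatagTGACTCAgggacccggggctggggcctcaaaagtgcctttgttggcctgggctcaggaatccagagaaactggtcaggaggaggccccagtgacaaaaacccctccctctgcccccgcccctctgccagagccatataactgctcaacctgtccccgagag
CLDN3, chr7:73770271-73770520, minus strand: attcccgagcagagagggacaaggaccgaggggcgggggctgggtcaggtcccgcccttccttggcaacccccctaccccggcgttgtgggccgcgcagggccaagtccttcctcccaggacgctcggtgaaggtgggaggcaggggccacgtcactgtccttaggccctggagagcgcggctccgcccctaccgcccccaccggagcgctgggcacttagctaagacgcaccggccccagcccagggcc
CLDN7, chr17:7262479-7262728, minus strand: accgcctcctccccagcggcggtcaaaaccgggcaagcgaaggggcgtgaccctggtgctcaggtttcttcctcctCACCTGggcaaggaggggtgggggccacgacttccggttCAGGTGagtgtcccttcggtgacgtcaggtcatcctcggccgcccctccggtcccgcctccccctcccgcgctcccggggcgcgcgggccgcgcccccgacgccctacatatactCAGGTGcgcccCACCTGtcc
CLDN1, chr3:190322447-190322696, minus strand: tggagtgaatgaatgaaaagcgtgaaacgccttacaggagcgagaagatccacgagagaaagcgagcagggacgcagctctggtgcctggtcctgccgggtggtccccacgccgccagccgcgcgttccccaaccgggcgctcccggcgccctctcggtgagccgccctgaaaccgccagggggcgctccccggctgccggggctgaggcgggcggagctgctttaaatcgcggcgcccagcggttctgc

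RefSeq windows, each 250 bases before to 50 after a start, were found for 7 of the 8 genes, with 12 starts in all. F11R had none. The CLDN7 start shown held 5 E-boxes, the last of them at position 6 past the start, while the other CLDN7 start, at position 7263213 of chromosome 17, held none. Of 35116 promoter windows of the same length, 20.6% held an E-box and 0.0940% held at least 5. CLDN4 had 2 matches to TGANTCA and no E-box. They were TGACTCA at position -161 from its start and TGATTCA at position -242. N stands for any base, so this pattern is wider than the AP-1 letters TGACTCA and TGAGTCA, and TGATTCA is neither of these. Matches to these alone were not counted. A TGANTCA match was present in 7.71% of all windows and at least 2 in 0.515%. CLDN3 had 1 E-box, at position 37 past its start and so outside the printed stretch, and CLDN1 had neither motif. OCLN had 1 E-box at one start and 2 at the other, TJP1 had 1 at the first of 4 starts, and CLDN12 had none. GC boxes (GGGCGG or CCGCCC), at which SP1 binds, were in 45.0% of windows, with 6 of them in CLDN3. Of those 6, 2 share letters with each other, and no E-box overlapped another motif. A match is a description of letters, not of binding.

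**Figure D1:**
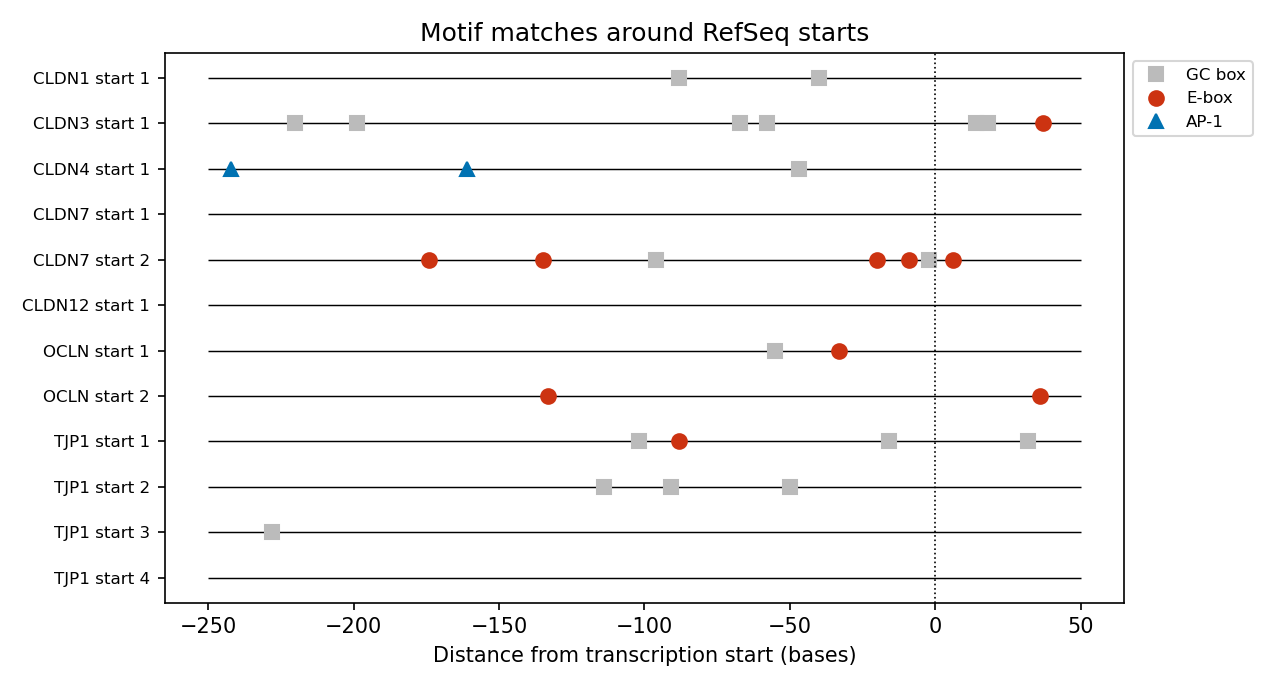
Motif matches around each RefSeq start of 7 genes, by distance from the start in bases (x axis), 1 line per start. The second CLDN7 start carries 5 E-boxes (circles), and CLDN4 carries 2 TGANTCA matches (triangles, labelled AP-1, a wider pattern than the AP-1 letters) and no E-box.

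CLDN4 and CLDN7 were higher in Kir2.1 and under the label Kv1.5 than in RFP. CLDN1 was higher under the label Kv1.5 than in both other groups. The other 5 genes did not pass the test against RFP in either line. For Kir2.1 against RFP, 2 of 8 genes were called changed, both higher, beside 20.5% of all 16687 genes tested (12.2% higher and 8.26% lower). The median log2 fold change was -0.43 for the 8 genes and -0.01 for all genes. For labelled Kv1.5 against RFP, 3 of 8 were called, all higher, beside 33.7% of all genes (18.1% higher and 15.6% lower), with a median of 0.19 against 0.02. These shares of so few genes are close to the background in both comparisons, and nothing is read from them about the set. Between the channel lines, 4 of 8 were called, 3 higher under the label Kv1.5 and 1 lower, beside 16.8% of all genes (8.79% higher and 7.99% lower). The libraries of both groups did not overlap for 5, 4 and 6 of the 8 genes in these 3 comparisons, beside 44.7%, 54.2% and 47.7% of all genes. Calls are those of edgeR's quasi-likelihood test at a Benjamini-Hochberg adjusted p under 0.05 over all genes tested. Both channel comparisons use the same RFP libraries.

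CLDN4 encodes a barrier-forming claudin of simple epithelia (ENSG00000189143.9, chromosome 7, 73799542 to 73832693 on GRCh38). The RFP libraries held 1.19, 1.08 and 0.834 CPM, from 50, 41 and 29 counts. The Kir2.1 libraries held 132.6, 135.3 and 122.7 CPM, and the labelled Kv1.5 libraries 52.1 and 62.6 CPM. The 3 groups did not overlap, and Kir2.1 was the highest. In Kir2.1, CLDN4 rose by 6.97 in log2 terms (SE 0.23, adjusted p = 5.68e-09 by edgeR), about 125-fold. Of 16687 genes only 1 had a smaller p there, and 54 had a larger rise. Under the label Kv1.5 the rise was 5.78 (SE 0.23, adjusted p = 1.51e-08), about 55.1-fold. The difference between the channel lines was itself called: the labelled Kv1.5 libraries were 2.27-fold below Kir2.1 (log2 fold change -1.18, SE 0.20, adjusted p = 0.00279).

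CLDN3, whose gene lies 29.3 kb from CLDN4 with no other protein-coding gene between them, encodes another barrier claudin often expressed with CLDN4 in epithelia (ENSG00000165215.6, chromosome 7, 73768997 to 73770270). That gap ends at the annotated edge of CLDN4, at 73799542. The CLDN4 start printed above lies further off, inside the annotated gene at 73830996, while the CLDN3 start is at 73770270. It was low in every library: 1.03, 0.630 and 0.518 CPM in RFP, 1.39, 1.03 and 0.837 CPM in Kir2.1, and 0.487 and 0.290 CPM under the label Kv1.5. RFP and Kir2.1 libraries overlapped, while both labelled Kv1.5 libraries were below all others. None of its comparisons passed, with log2 fold changes of 0.57 (SE 0.40, adjusted p = 0.341 by edgeR) for Kir2.1 and -0.90 (SE 0.48, adjusted p = 0.171) for labelled Kv1.5 against RFP. Between the channel lines it was -1.47 (SE 0.48, adjusted p = 0.0559), a difference that was called by DESeq2 (adjusted p = 0.0459), without RFP replicate 1 (adjusted p = 0.0483) and without Kv1.5 replicate 2 (log2 fold change -1.89, adjusted p = 0.0450). These values rest on 11 to 43 counts per library.

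CLDN7 encodes a claudin found both in tight junctions and along the lateral membrane of epithelial cells (ENSG00000181885.18, chromosome 17, 7259903 to 7263983). It stood at 2.22, 7.82 and 7.51 CPM in RFP, the first replicate being the lowest. Kir2.1 libraries held 21.7, 23.8 and 34.3 CPM, and labelled Kv1.5 libraries 56.9 and 94.6 CPM. Again no group overlapped another, but here the label Kv1.5 was the highest, the reverse of the CLDN4 order. The rise over RFP was 2.19 in Kir2.1 (SE 0.42, adjusted p = 0.00390 by edgeR) and 3.70 under the label Kv1.5 (SE 0.46, adjusted p = 0.000182). Labelled Kv1.5 was above Kir2.1 by 1.51 (SE 0.43, adjusted p = 0.0366). That last call was lost in 5 of 17 alternatives: without any 1 Kir2.1 library (adjusted p = 0.0602 to 0.125), without Kv1.5 replicate 3 (log2 fold change 1.09, adjusted p = 0.245), and against a fold of 1.2 (adjusted p = 0.0522). Exons of CLDN7 share 10.8% of their bases with a read-through gene on the same strand (ENSG00000262302), which had 0 counts in every library. The sources used here do not say how reads in shared exons were counted.

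CLDN1 encodes a claudin needed for the skin barrier (ENSG00000163347.6, chromosome 3, 190305701 to 190322475). It was at 4.37, 5.30 and 8.86 CPM in RFP and 4.68, 3.89 and 5.05 CPM in Kir2.1, which overlapped. The labelled Kv1.5 libraries held 84.5 and 39.7 CPM, both far above all 6 others. In this gene replicate 2 was the higher of the pair, whereas for CLDN7 it was replicate 3. The rise over RFP was 3.33 (SE 0.35, adjusted p = 3.92e-05 by edgeR), and 2.69 without Kv1.5 replicate 2. Against Kir2.1 it was 3.77 (SE 0.36, adjusted p = 0.000120), or 3.13 without that library. For Kir2.1 against RFP the log2 fold change was -0.44 with a 95% interval of -1.14 to 0.25 (adjusted p = 0.356).

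**Figure D2:**
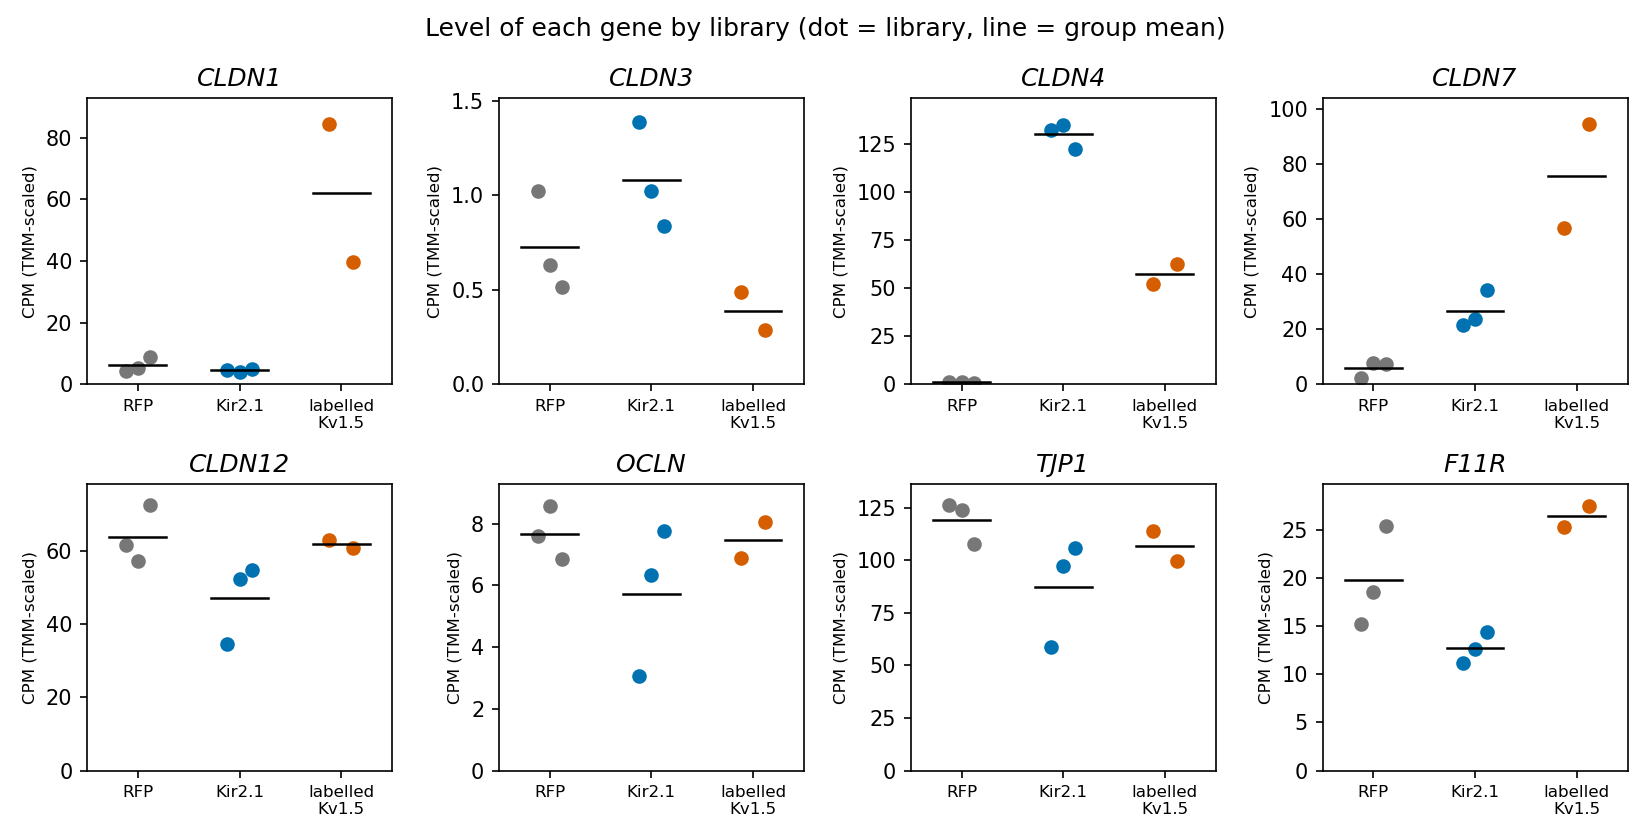
Level of each of the 8 genes in CPM (y axis, from 0, a scale of its own in each panel) by group, with a dot per library and a line at the group mean. CLDN4 is near 1 CPM in RFP and 122.7 to 135.3 CPM in Kir2.1, while CLDN1 is high only in the 2 labelled Kv1.5 libraries.

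CLDN12, a claudin that lacks the usual C-terminal motif for binding ZO proteins (ENSG00000157224.16, chromosome 7, 90383721 to 90513402), was abundant in all groups. RFP libraries held 61.7, 57.3 and 72.7 CPM, Kir2.1 libraries 34.5, 52.3 and 54.9 CPM, and labelled Kv1.5 libraries 63.0 and 61.0 CPM. All Kir2.1 libraries were below all RFP libraries, but the log2 fold change of -0.44 did not pass (SE 0.20, adjusted p = 0.148 by edgeR). TJP1, which encodes the scaffold ZO-1 (ENSG00000104067.16, chromosome 15, 29699367 to 29968865), was at 126.4, 124.0 and 107.9 CPM in RFP, 58.8, 97.5 and 105.8 CPM in Kir2.1, and 114.0 and 99.6 CPM under the label Kv1.5. Here too no Kir2.1 library reached the RFP libraries, and the log2 fold change was -0.45 (SE 0.22, adjusted p = 0.160 by edgeR). OCLN, the gene of occludin (ENSG00000197822.11, chromosome 5, 69492292 to 69558104), was at 7.61, 8.56 and 6.85 CPM in RFP, 3.07, 6.32 and 7.75 CPM in Kir2.1, and 6.88 and 8.05 CPM under the label Kv1.5. Its groups overlapped in all 3 comparisons, with a Kir2.1 log2 fold change of -0.42 (SE 0.31, adjusted p = 0.359 by edgeR).

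All 3 genes have more than 6 kb of exon, and in each of them Kir2.1 replicate 1, the library in which long genes sat low, was the lowest of all 8. Without it the Kir2.1 log2 fold changes were -0.25 for CLDN12, -0.23 for TJP1 and -0.12 for OCLN (adjusted p = 0.363, 0.393 and 0.781 by edgeR). The part of length in these values was not tested further. For labelled Kv1.5 against RFP the 95% intervals were -0.53 to 0.45 for CLDN12, -0.69 to 0.37 for TJP1 and -0.78 to 0.70 for OCLN. Changes of more than 2-fold lay outside these intervals. Exons of CLDN12 share up to 5.50% of their bases with any other gene, among them GTPBP10, which rose by 1.14 under the label Kv1.5 (adjusted p = 0.00238 by edgeR), and CDK14, which fell there by 1.14 (adjusted p = 0.00931).

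F11R encodes JAM-A, an immunoglobulin-type adhesion protein of tight junctions (ENSG00000158769.18, chromosome 1, 160995211 to 161021348). RFP libraries held 15.3, 18.6 and 25.5 CPM, Kir2.1 libraries 11.2, 12.6 and 14.4 CPM, and labelled Kv1.5 libraries 25.3 and 27.6 CPM. The Kir2.1 libraries were below all others, and 1 RFP library overlapped the labelled Kv1.5 pair. Labelled Kv1.5 was 2.08-fold above Kir2.1 (log2 fold change 1.05, SE 0.25, adjusted p = 0.0138 by edgeR), a call lost without Kir2.1 replicate 2 (adjusted p = 0.0537) or Kv1.5 replicate 3 (adjusted p = 0.0571). Against RFP, Kir2.1 was at -0.63 (SE 0.22, adjusted p = 0.0642), and labelled Kv1.5 at 0.42 (SE 0.25, adjusted p = 0.212). The first of these was called by DESeq2 (adjusted p = 0.0316), with the replicate number as a block (adjusted p = 0.0392) and without RFP replicate 1 (adjusted p = 0.0367). A read-through gene (ENSG00000270149) covers 36.6% of the F11R exon bases and stood at no more than 0.105 CPM.

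**Figure D3:**
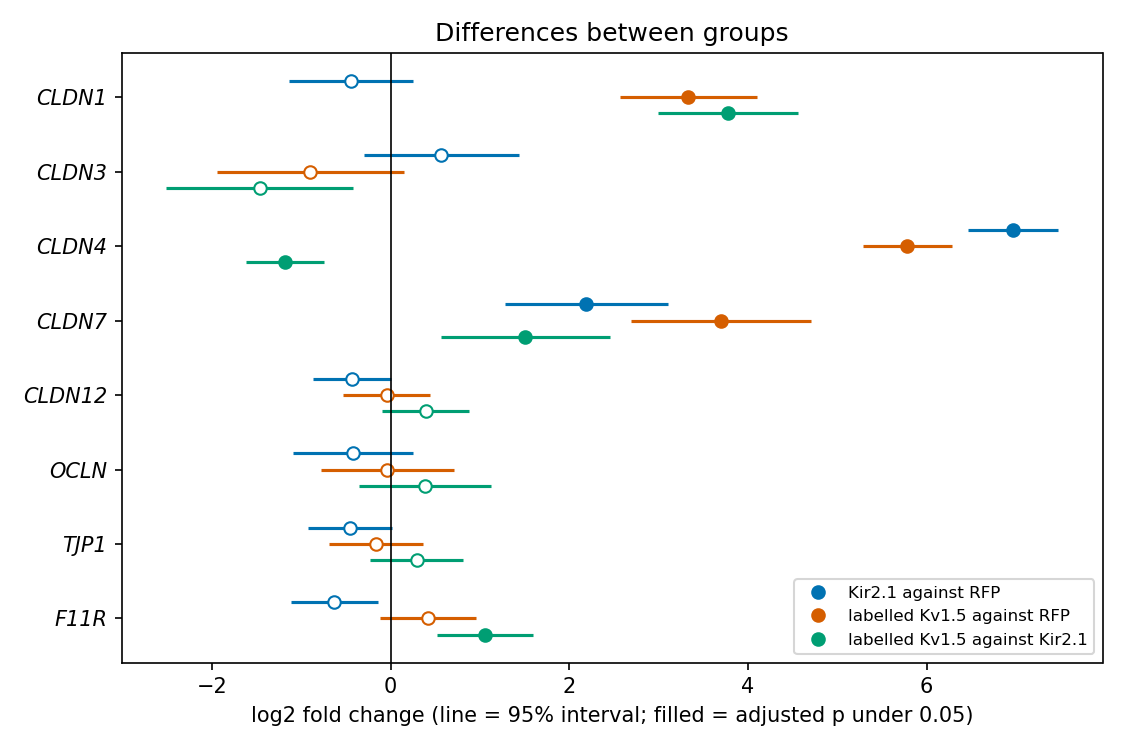
Log2 fold change of each gene (x axis) in the 3 comparisons, with 95% intervals from edgeR. Filled dots passed an adjusted p of 0.05. CLDN4 and CLDN7 lie right of 0 against RFP in both lines, and their signs are opposite between the channel lines.

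Per kb of exon, the order of the 8 genes differed between groups. In RFP, TJP1 led with 10.6 ± 0.892 CPM per kb (SD, n = 3), beside CLDN12 with 9.48 ± 1.18, and those neighbours overlapped. F11R, CLDN7, CLDN1 and OCLN followed, each overlapping the next, and then CLDN3 and, lowest, CLDN4 with 0.220 ± 0.0389 CPM per kb. In Kir2.1, CLDN4 led with 27.7 ± 1.42 CPM per kb (SD, n = 3), clear of CLDN7 with 10.7 ± 2.70, which overlapped TJP1. Under the label Kv1.5, CLDN7 led with 22.8 and 37.9 CPM per kb, followed by CLDN1 with 23.1 and 10.8 and CLDN4 with 11.1 and 13.3. Those 3 overlapped in that order, and CLDN4 was above TJP1. OCLN stayed between 0.454 and 1.27 CPM per kb in all libraries. The order within a group depends on the annotated exon length. That length is 4702 bases over 5 transcripts for CLDN4 and 1274 bases over 1 transcript for CLDN3. Which CLDN4 transcripts were present was not tested, so its place beside genes of similar level is uncertain.

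Summed over the 24 claudins listed, transcripts came to 19.8 to 25.2 CPM per kb in RFP, 52.4 to 58.1 in Kir2.1 and 71.3 to 76.9 under the label Kv1.5, with no overlap. No test was made on this sum. CLDN12 made up 37.8% to 46.2% of the claudin sum in RFP and 9.78% to 14.0% in the other libraries. CLDN4 went from 0.703% to 1.28% in RFP to 44.9% to 53.9% in Kir2.1, and was 15.5% to 17.3% under the label Kv1.5. In labelled Kv1.5 replicate 2, CLDN1 made up 32.3% and CLDN7 32.0% of the sum. In replicate 3, CLDN7 made up 49.4%, ahead of CLDN4 with 17.3% and CLDN1 with 14.1%. Shares of exon-scaled counts depend on the annotated exon length.

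**Figure D4:**
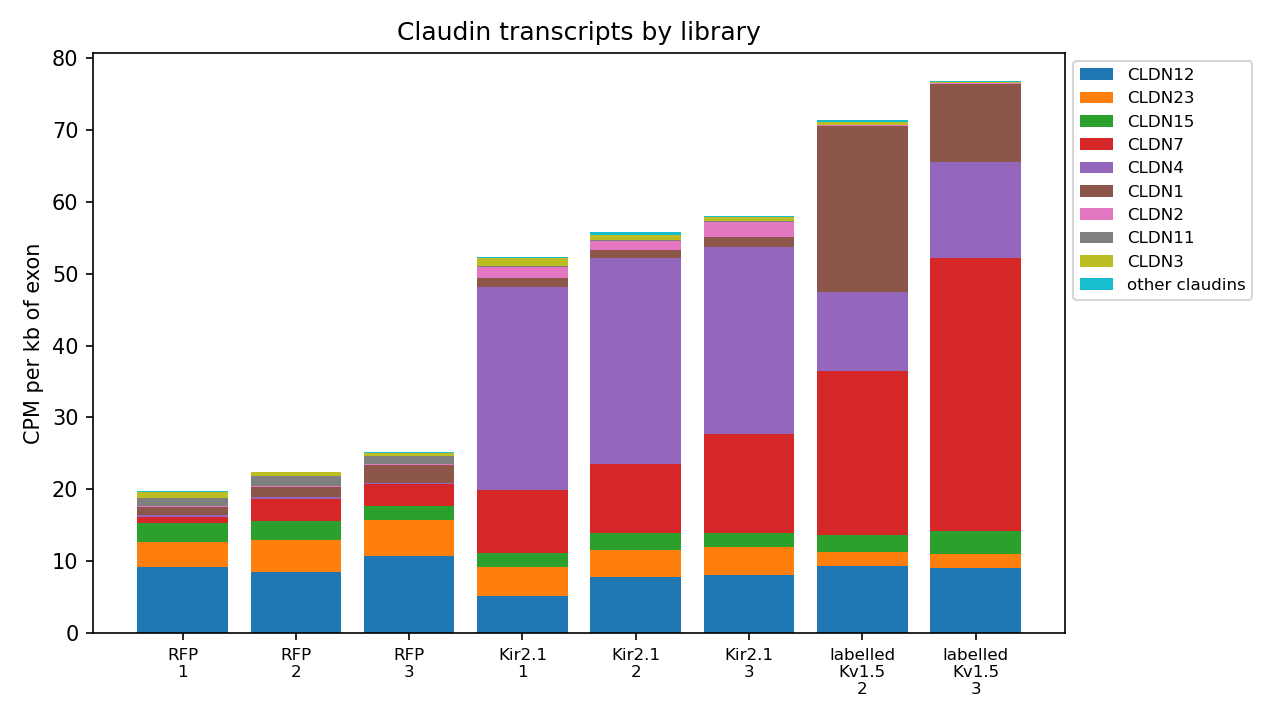
Claudin transcripts in each library as stacked bars (y axis, CPM per kb of exon, from 0), 1 colour per claudin. The summed height is 19.8 to 25.2 in RFP and 52.4 or more elsewhere, with CLDN4 the tallest band in Kir2.1.

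Of the 19 other claudins, 8 had 0 counts in all 8 libraries, which allows up to 0.0101 CPM each, and only 4 passed the filter. CLDN2, which forms a cation pore, rose by 3.68 in Kir2.1 (SE 0.58, adjusted p = 0.000964 by edgeR), with 5.33, 4.00 and 7.0 CPM against 0.0477, 0.499 and 0.748 CPM in RFP. It was at 0.487 and 0.474 CPM under the label Kv1.5, below Kir2.1 (log2 fold change -3.49, adjusted p = 0.00571). Without RFP replicate 3 the rise was 4.32. CLDN11, the claudin of myelin and Sertoli cells, moved the other way in both lines. It stood at 4.34, 4.93 and 4.14 CPM in RFP and 0.420, 0.594 and 0.418 CPM in Kir2.1 (log2 fold change -3.21, SE 0.33, adjusted p = 7.1e-05). It had 0 counts in both labelled Kv1.5 libraries, against 514 in RFP, and so was at least 115-fold lower there (3 counts over the group; adjusted p = 4.07e-06). That bound is 56.7-fold without Kv1.5 replicate 2 and 58.2-fold without replicate 3, and against Kir2.1 it is 12.4-fold, or 6.10-fold and 6.26-fold without those libraries. CLDN23 fell under the label Kv1.5 (log2 fold change -1.11, SE 0.26, adjusted p = 0.00599 by edgeR). It was also below Kir2.1 there (-0.97, adjusted p = 0.0241), a call lost without any 1 Kir2.1 library or Kv1.5 replicate 3 (adjusted p = 0.0555 to 0.0768). CLDN15 was not called in any comparison.

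Among 12 other transmembrane proteins of the junction, 6 were tested. LSR, the angulin of three-cell contacts, fell in Kir2.1 from 52.1 to 57.7 CPM in RFP to 19.0 to 21.3 CPM (log2 fold change -1.45, SE 0.21, adjusted p = 0.000465 by edgeR). Under the label Kv1.5 LSR held 55.9 and 33.3 CPM and was not called against RFP (adjusted p = 0.373), but was without Kv1.5 replicate 2 (log2 fold change -0.70, adjusted p = 0.0374). It was above Kir2.1 by 1.17 (adjusted p = 0.00520). MARVELD2 encodes tricellulin, and its gene lies 48.0 kb from OCLN. It fell in both lines, with log2 fold changes of -1.12 in Kir2.1 (adjusted p = 0.0110) and -1.33 under the label Kv1.5 (adjusted p = 0.00610), while OCLN did not pass in either. The Kir2.1 call of MARVELD2 was lost without Kir2.1 replicate 1 or 2 (adjusted p = 0.0510 and 0.0655). ILDR2, another angulin, fell by 2.46 under the label Kv1.5 (SE 0.31, adjusted p = 0.000121), and stood below Kir2.1 too (log2 fold change -2.29, adjusted p = 0.000746). ESAM, an adhesion molecule known from endothelium, rose by 0.71 under the label Kv1.5 (adjusted p = 0.0167), a call lost without Kv1.5 replicate 2 (adjusted p = 0.0656). All Kir2.1 libraries were above all RFP libraries for ESAM too (log2 fold change 0.50, adjusted p = 0.0679). That difference was called in some alternatives (adjusted p = 0.0473 to 0.0499).

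All 30 scaffold and polarity genes were tested. Of these, 20% were called in Kir2.1, 33.3% under the label Kv1.5 and 23.3% between the channel lines, beside 20.5%, 33.7% and 16.8% of all genes. The first 2 shares are at the background. Most calls behind the third were lost in some alternative, and nothing is read from that share. In Kir2.1, 3 rose and 3 fell. AFDN, the actin-binding afadin, rose by 1.01, LLGL1 by 0.88 and PARD3 by 0.60 (adjusted p = 0.00601, 0.00915 and 0.0237 by edgeR), the last a call lost in 5 alternatives. PRKCZ, an atypical protein kinase C of the Par complex, fell by 1.99 (SE 0.23, adjusted p = 8.64e-05), from 19.4 to 25.9 CPM in RFP to 5.30 to 6.49 CPM. YBX3, which encodes the ZO-1-binding factor ZONAB, fell by 0.74 and AMOTL2 by 0.68 (adjusted p = 0.0104 and 0.0282). The AMOTL2 call was lost in 6 alternatives. The YBX3 call was lost without Kir2.1 replicate 2 or 3 (adjusted p = 0.0566 and 0.0552). Under the label Kv1.5, 5 rose and 5 fell. AFDN was up by 0.96, PARD3 by 0.92 and PATJ by 0.86 (adjusted p = 0.00832, 0.00245 and 0.0326), the last lost in 7 alternatives, while MAGI3, PALS1 and AMOTL1 were down (log2 fold change -1.21, -0.85 and -0.72, adjusted p = 0.00332, 0.00934 and 0.0426). The AMOTL1 call was lost in 7. Between the channel lines 3 were higher under the label Kv1.5, among them PRKCZ (1.43, adjusted p = 0.00268) and YBX3 (0.81, adjusted p = 0.0139, lost without Kir2.1 replicate 2 or 3). The third, ARHGEF2, was 0.79 higher (adjusted p = 0.0462), but 0.27 without Kv1.5 replicate 2, and its call was lost in 10 alternatives. Of 4 that were lower, AMOTL1 led with -1.21 (adjusted p = 0.00831), and MAGI3 (-0.84) and LLGL1 (-0.73) lost their calls in 8 alternatives each. PALS1 (-0.68, adjusted p = 0.0459) lost its call with RLE factors and without Kir2.1 replicate 3, among others (adjusted p = 0.0534 and 0.162). CGN, which encodes cingulin, was tested and not called in any comparison.

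Over the 61 tight junction genes outside the 8, of which 40 were tested, 4 rose and 6 fell in Kir2.1 (25% called, beside 20.5% of all genes). Without Kir2.1 replicate 2 the calls numbered 6. Under the label Kv1.5, 6 rose and 9 fell (37.5%, beside 33.7%), and between the channel lines 4 were higher under the label Kv1.5 and 8 lower (30.0%, beside 16.8%). This last count was 6 without Kir2.1 replicate 2 or 3, 8 without Kv1.5 replicate 3 or RFP replicate 2, and 8 with only the 2 groups compared or against a fold of 1.2. The median log2 fold changes were 0.07, -0.06 and -0.21, beside -0.01, 0.02 and 0.01 over all genes.

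**Figure D5:**
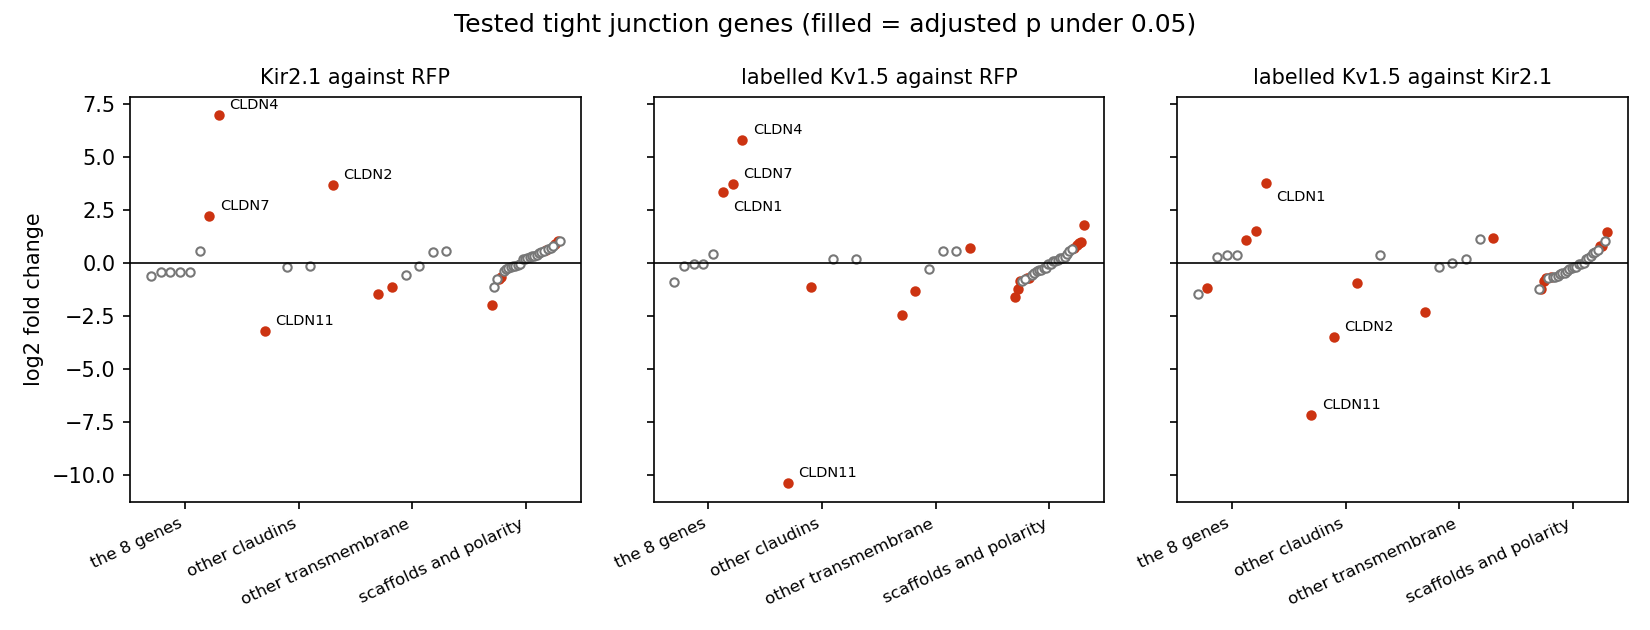
Log2 fold change (y axis) of every tested gene in 4 lists, 1 panel per comparison, ordered within a list by value; filled dots passed an adjusted p of 0.05. CLDN4 is the highest point against RFP in both lines and CLDN11 the lowest, at -3.21 and -10.37; the fitted CLDN11 value against 0 counts depends on the prior count.

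The claudin changes were set beside other epithelial genes. Of 15 markers of E-cadherin-positive epithelial lines, such as MDA-MB-468, which was also handled in the study, 8 were under 1 CPM in every library. E-cadherin itself (CDH1) was at 0.0323 to 0.184 CPM, and its transcription factor GRHL2 had 1 count in all. The summed level of the 15 was 21.5 to 29 CPM in RFP, 31.6 to 37.3 CPM in Kir2.1 and 77.9 to 95.2 CPM under the label Kv1.5. Of these sums, MAL2 alone held 0.341 to 1.38 CPM, 5.24 to 7.67 CPM, and 41.4 and 48.1 CPM. MAL2, a membrane traffic protein, rose by 3.03 in Kir2.1 and 5.90 under the label Kv1.5 (adjusted p = 0.000262 and 2.76e-06 by edgeR). Without RFP replicate 3 these were 3.76 and 6.63. The splicing factor ESRP2 rose by 3.24 and 4.58 (adjusted p = 1.64e-05 and 1.58e-06), whereas its paralog ESRP1 fell by 3.02 in Kir2.1 (adjusted p = 0.00542) and was not called under the label Kv1.5. ESRP1 was low, at 0.334 to 0.971 CPM in RFP and 0.0540 to 0.139 CPM in Kir2.1, with 9 counts over that group. EPCAM, an epithelial adhesion protein that binds CLDN7, was at 12.7 to 17.7 CPM in RFP, 7.78 to 10.9 CPM in Kir2.1, and 15.0 and 27.2 CPM under the label Kv1.5, with neither line called against RFP (adjusted p = 0.0865 and 0.270). Kir2.1 was called lower in 4 alternatives (adjusted p = 0.0345 to 0.0488), and labelled Kv1.5 higher without Kv1.5 replicate 2 (adjusted p = 0.0468). Between the channel lines EPCAM was 1.11 higher under the label Kv1.5 (adjusted p = 0.0215), a call lost without Kir2.1 replicate 1 or 2 or Kv1.5 replicate 3 (adjusted p = 0.0522, 0.0901 and 0.213). In all, 3 of 7 tested markers rose and 1 fell in Kir2.1, and 2 rose under the label Kv1.5. That is 57.1% and 28.6% called, beside 20.5% and 33.7% of all genes. The part of these genes in the claudin values was not tested. KRT15, the third that rose in Kir2.1, lost its call in 6 alternatives.

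At adherens junctions, JUP, which encodes plakoglobin, rose by 1.93 in Kir2.1 and 1.19 under the label Kv1.5 (adjusted p = 0.00105 and 0.0159 by edgeR), the latter 0.59 without Kv1.5 replicate 2, where its call was lost (adjusted p = 0.216), and lost also without RFP replicate 2 (adjusted p = 0.0518). NECTIN2 rose by 0.94 and 0.62 (adjusted p = 0.00166 and 0.0179), where the second did not pass when RFP replicate 2 was left out (adjusted p = 0.0520), nor without Kv1.5 replicate 2 (0.0782). NECTIN1 fell by 1.13 under the label Kv1.5 (adjusted p = 0.0105, and 0.0616 without Kv1.5 replicate 2). The alpha, beta and p120 catenins were not called. Markers of other cell types were read in the same libraries and did not all go one way. PTPRC and CDH5 were at most 0.167 and 0.0770 CPM, and CD3E, LIN28B, PAX2 and CLDN5 had 0 counts. LHX1 was at most 0.0288 CPM. LYZ, a myeloid marker, rose in both lines, from at most 0.173 CPM in RFP to 0.737 to 2.67 CPM (log2 fold change 3.59 and 2.97, adjusted p = 0.000240 and 0.000879 by edgeR, and 2.14 under the label Kv1.5 without its replicate 2), and PECAM1, an endothelial marker, ran from 1.31 to 20.1 CPM within RFP alone. The part of other cells in the results was not tested. The 6 markers of MDA-MB-231 were present in every library, with sums of 5132 to 6916 CPM in RFP, 6657 to 7687 CPM in Kir2.1 and 4310 to 5412 CPM under the label Kv1.5. Of these MSN rose in both lines (1.05 and 0.93), while CAV1 (-1.64) and VIM (-0.90) fell under the label Kv1.5, the last a call lost without Kv1.5 replicate 3 (adjusted p = 0.0668).

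Repressors of epithelial junction genes were read in the same libraries. SNAI1 was at 5.15, 2.05 and 1.93 CPM in RFP and 0.420, 0.378 and 1.17 CPM in Kir2.1, and fell by 2.20 in log2 terms (SE 0.62, adjusted p = 0.0268 by edgeR). This call was lost without RFP replicate 1, where the value was -1.59, or without Kir2.1 replicate 1 or 2 (adjusted p = 0.0922, 0.115 and 0.109), and without Kir2.1 replicate 3 the value was -2.92. The labelled Kv1.5 libraries, at 0.847 and 3.53 CPM, overlapped the RFP range, and SNAI1 was not called there (adjusted p = 0.602). ZEB2 fell by 0.76 in Kir2.1 (adjusted p = 0.0403), a call lost in 6 alternatives, with 25058 bases of exon and Kir2.1 replicate 1 the lowest library. ZEB1, at 55.2 to 102 CPM, and SNAI2, at 27.1 to 49.6 CPM, were not called in any comparison, and TWIST1 and TWIST2 had 0 counts. TCF4, with 1 count in RFP, was 40.9 times higher in Kir2.1 by its counts (95% interval 6.90 to 1659) and 68.6 times under the label Kv1.5 (11.7 to 2767). Without RFP replicate 1, which held that count, these were at least 8.66-fold and 14.5-fold higher. The ratio under the label Kv1.5 was 39.3 (5.90 to 1669) without Kv1.5 replicate 2.

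Genes outside these lists whose profile over the 8 libraries was nearest were found by the root mean square difference of centred log2 CPM, among 10643 genes that averaged 5 CPM or more. TP53I11 was nearest to CLDN4 (0.35 on the log2 scale), at 14.4 ± 1.16 CPM in Kir2.1, 7.87 ± 1.23 CPM under the label Kv1.5 and 0.0192 ± 0.0332 CPM in RFP (SD, n = 3, 2 and 3). Its RFP level is below the pseudocount of 0.1 CPM, which thus sets how near it comes. GALNT18 and IFI27 came next. PLAT was nearest to CLDN7 (0.47), at 99.3 ± 28.5, 512 ± 38.7 and 1087 ± 213 CPM in RFP, Kir2.1 and labelled Kv1.5, followed by ICAM1 and C20orf96. CLDN1 was closest to TNFSF18 (0.44), CHAC1 and CTH, which like it were low in RFP and Kir2.1 and high under the label Kv1.5. The nearness is a description of 8 libraries in 3 groups.

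In the authors' deposited table for Kir2.1 against RFP, CLDN4 and CLDN7 are the listed genes of the 8, with log2 fold changes of 6.96 and 2.18. The authors' deposited table for Kv1.5 against RFP lists CLDN4, CLDN7 and CLDN1, with 5.78, 3.70 and 3.34. These come from the same counts and are no separate evidence.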

How the data were processed

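Poly(A) RNA of transduced MDA-MB-231 cells was sequenced as stranded single-end libraries, per the labels' protocols. The authors deposited 1 table of raw, unnormalised counts over 60715 Ensembl genes. The submitters' processing notes name GRCh38, STAR, Trimmomatic, FastQC and edgeR. The sources used here do not say how genes were counted, with which strand setting or annotation, so reads of overlapping genes cannot be told apart. The authors' deposited comparison tables give log2 fold changes, log2 CPM and p-values for selected genes, per the file headers.

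Symbols came from a gene name table (60445 of 60715 IDs), and positions and exon-union lengths from GENCODE 29 (58497 IDs), as in the counts' build. The main test was edgeR 4.0.16 under R 4.3.3. After filterByExpr on the groups 16687 genes were kept, TMM gave the scaling, and 1 robust quasi-likelihood fit of all 8 libraries, with group as the term, left 5 residual degrees of freedom. Adjusted p-values are Benjamini-Hochberg over all genes tested, with a threshold of 0.05. Standard errors and 95% intervals come from the F statistic. The design had assumed 9 libraries. Bounds against 0 counts use 3 counts over the group, ratios from 1 to 3 counts carry exact 95% intervals, and both cover counting error only. The fits were also run on simulated counts with known changes, drawn without any shift by gene length.

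The 8 genes and all lists were chosen with earlier results of these data known. Named genes are the 8, up to 3 called genes per list and direction with a mean of at least 1 CPM, CDH1, EPCAM, the channel genes and the nearest 3 profiles of CLDN4, CLDN7 and CLDN1 (pseudocount 0.1 CPM). ESRP1, TCF4, CLDN15, CGN, GTPBP10, CDK14, the catenins and the other repressors were picked after their values were seen. Alternatives were RLE and upper quartile factors, 2 other filters, DESeq2 1.42.0, limma 3.58.1 voom, the 2 compared groups alone, the replicate number as a block, glmTreat against a fold of 1.2, and each library left out. No 2 replicates agreed within sampling noise (chi-square over its degrees of freedom, 25.9 to 164.9). The labelled Kv1.5 pair was the least alike, with the highest of these values, 164.9, and the lowest correlation of log2 CPM, 0.974.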

Additional observations from a re-analysis of the deposited data

How the results depend on the processing

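Each comparison was recomputed under 17 alternatives. Of the 408 values of single genes among the 8, 392 kept both their direction and their side of the threshold, 7 lost a call, 6 gained one and 3 turned sign. The calls of CLDN4 in all 3 comparisons, of CLDN7 against RFP in both lines and of CLDN1 under the label Kv1.5 held in all 17, with log2 fold changes against RFP of 6.83 to 7.08 and 5.64 to 5.91 for CLDN4, 1.79 to 2.46 and 3.29 to 4.02 for CLDN7, and 2.69 to 3.78 for CLDN1. The sign changes were in values near 0 for labelled Kv1.5 against RFP: CLDN12 ran from -0.12 to 0.05 over the left-out libraries, with 0.0519 without RFP replicate 3, and OCLN from -0.16 to 0.08, with 0.0413 without RFP replicate 2 and 0.0755 without Kv1.5 replicate 2. Leaving out 1 library gave 1975 to 4519 genes called for Kir2.1 against RFP (3418 with all), the lowest without Kir2.1 replicate 2 and 2143 without RFP replicate 2, and 6 to 13 of the other tight junction genes (10 with all). It gave 1384 to 3861 genes between the channel lines (2801 with all), with 1859, 1384 and 1493 without Kir2.1 replicates 1, 2 and 3 and 1484 without Kv1.5 replicate 3, and 6 to 11 of the other tight junction genes (12 with all). Of the 8 genes it left 2 to 5 called there (4 with all), with 2 without Kir2.1 replicate 2 or Kv1.5 replicate 3. A group left with 1 library is assumed to vary like the others.

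With the replicate block, 3707, 5565 and 2729 genes were called in the 3 comparisons and 3, 3 and 4 of the 8. Deviations of same-numbered libraries correlated at -0.11 to 0.20 across genes. Between RFP and Kir2.1 the values were 0.20 for replicates 1, -0.10 for replicates 2 and 0.18 for replicates 3. Pairs of unlike number between these groups ran from -0.24 to 0.08. Whether same-numbered libraries share more than a number was not tested. Low counts limit CLDN3 most, at 11 to 43 counts per library.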
